A study of Mus musculus with 2 samples.

Results

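The genes of the proteasome were followed in macrophages grown from mouse bone marrow. A gene was taken when its symbol began with Psm, a letter from a to g and a digit, and 50 of the 19505 named genes on the array did so. Of these, 47 encode proteasome subunits, activators, an inhibitor or assembly chaperones, and they are called the proteasome genes here. The other 3 only share the spelling: Psmc3ip, a factor of meiotic recombination, Psme3ip1, whose product binds the activator Psme3, and Psme2b, a retrocopy of Psme2. The 47 comprised 13 genes of the constitutive core, 17 of the regulatory particle, the 5 immunoproteasome genes Psmb8, Psmb9, Psmb10, Psme1 and Psme2, and 12 others. Psmb5, the catalytic subunit that Psmb8 replaces, was not analysed here.

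The study compared 2 genotypes with 1 whole-transcript array each. One culture had the genotype LysM (+);MC4RTB/TB, called LysM(+), and the other the genotype MC4RTB/TB, called TB/TB, so the homozygous TB allele of the melanocortin 4 receptor gene was common to both. As background, a TB allele is understood to carry a removable cassette that stops transcription, and LysM commonly drives Cre recombinase in myeloid cells, but the labels spell out neither, nor the animals' age, sex or number. Both cultures were given M-CSF at 25 ng/mL on day 0 and day 3 in medium with 10% serum, with use from day 5. With 1 array per genotype no test, p-value or replicate error exists for any difference below, and precision is limited by having so few arrays. All values are the authors' log2 RMA values per probe set, and each difference is LysM(+) minus TB/TB on that scale.

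The proteasome degrades proteins tagged with ubiquitin. Its barrel-shaped core holds outer rings of alpha subunits, which gate entry, and inner rings of beta subunits, of which Psmb5, Psmb6 and Psmb7 carry the constitutive proteolytic sites. The regulatory particle caps the core: its base of ATPases unfolds the substrate and its lid removes ubiquitin. In immune cells, and in other cells under interferon, the catalytic subunits Psmb8, Psmb9 and Psmb10 take the places of Psmb5, Psmb6 and Psmb7, and the activator PA28, built from Psme1 and Psme2, caps the core. This immunoproteasome is known for shaping the peptides that macrophages and other cells present on MHC class I.

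The stretches upstream of 5 genes are shown because the comparison of the constitutive with the immunoproteasome genes turns on them: Psmb6 and Psme2 had the highest and lowest differences, Psmb9 and Psmb8 are immunoproteasome genes of the MHC region, and Psme1 is the partner of Psme2. Each is the 250 bases before the start of the gene, from RefSeq on GRCm38.p6, 5′ to 3′ on the strand of the gene. Capitals mark matches, on either strand, to 5 motifs: the interferon-stimulated response element core GAAANNGAA, the gamma-activated site TTCNNNGAA, the antioxidant response element core TGACNNNGC, the CCAAT box CCAAT and the ETS site CCGGAAG. Overlapping matches were allowed. Psmb6 lies at chr11:70525107-70525356 (plus strand) and ends in an antioxidant response element core. Psmb8 lies at chr17:34197945-34198194 (plus strand) and holds a gamma-activated site. Psmb9 lies at chr17:34187331-34187580 (minus strand) and holds a CCAAT box read on the opposite strand. Psme1 lies at chr14:55578244-55578493 (plus strand) and Psme2, of whose 2 listed starts the outer one is shown, at chr14:55591102-55591351 (minus strand); neither stretch held these letters.
Psmb6: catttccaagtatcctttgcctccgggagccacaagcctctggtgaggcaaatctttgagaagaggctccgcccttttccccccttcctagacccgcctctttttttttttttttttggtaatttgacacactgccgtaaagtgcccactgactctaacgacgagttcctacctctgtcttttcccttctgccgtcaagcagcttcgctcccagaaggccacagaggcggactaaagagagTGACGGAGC
Psmb8: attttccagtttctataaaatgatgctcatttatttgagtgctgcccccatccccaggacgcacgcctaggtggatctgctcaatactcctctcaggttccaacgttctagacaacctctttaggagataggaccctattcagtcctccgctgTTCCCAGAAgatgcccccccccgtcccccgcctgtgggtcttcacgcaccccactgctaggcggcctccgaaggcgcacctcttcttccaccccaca
Psmb9: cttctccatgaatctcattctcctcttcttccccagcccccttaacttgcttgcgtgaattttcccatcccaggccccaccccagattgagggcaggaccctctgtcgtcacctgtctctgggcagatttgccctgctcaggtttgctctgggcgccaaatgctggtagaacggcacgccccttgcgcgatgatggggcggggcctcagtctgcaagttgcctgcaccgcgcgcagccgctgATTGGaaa
Psme1: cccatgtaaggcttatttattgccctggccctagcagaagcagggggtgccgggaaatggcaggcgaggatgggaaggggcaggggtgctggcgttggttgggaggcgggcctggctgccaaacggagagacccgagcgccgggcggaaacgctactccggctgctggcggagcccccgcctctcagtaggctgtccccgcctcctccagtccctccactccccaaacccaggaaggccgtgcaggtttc
Psme2: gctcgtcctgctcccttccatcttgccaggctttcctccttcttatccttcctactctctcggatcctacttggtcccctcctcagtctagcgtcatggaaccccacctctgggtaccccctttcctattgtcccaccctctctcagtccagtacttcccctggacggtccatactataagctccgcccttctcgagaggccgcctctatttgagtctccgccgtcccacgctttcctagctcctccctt

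Of the 47 proteasome genes, 39 had an upstream stretch in the RefSeq table. A gene was counted when any of its listed stretches held the letters, whereas the shares below are of single promoters. The interferon-stimulated response element core was found for 3 of the 39 (Psmb3, Psmd4 and Psmd9), against 7.13% of the 32851 listed promoters (a gene can have several), and the gamma-activated site for 2 (Psmb8 and Psmg1), against 7.02%. The antioxidant response element core stood before 4 (Psmb6, Psmc6, Psmd12 and Psmd9), against 10.2% of all promoters. The CCAAT box stood before 14 of the 39, against 33.8%. These matches describe the letters of the windows and nothing more.

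Genes of the constitutive proteasome had slightly higher signal on the LysM(+) array, while the 5 immunoproteasome genes were split, 2 higher and 3 lower (1 higher after quantile normalization or loess). The 13 core genes had a median difference of 0.27, the 17 regulatory particle genes one of 0.29 and the 5 immunoproteasome genes one of -0.07. Over all 19505 genes, dim ones included, it was -0.01. Over the 4924 genes with mean values in the range of the core and regulatory particle genes it was 0.10. The differences between these medians were not tested. Of the 30 core and regulatory particle genes, 26 were higher in LysM(+) by any amount and 4 lower (25 higher after quantile normalization or loess). The largest differences among all 47 were Psmb6, higher by 0.78, and Psme2, with a difference of -0.67.

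The background over all genes sets the scale of these counts. A gene was counted when the higher of its 2 values was at least 6.12, called the brightness floor, which is the middle of the mean values of all named probe sets; 10137 genes passed, and their median difference was 0.07. Of these genes, 57.1% were higher in LysM(+) by any amount, 25.5% were higher by at least 0.32 on the log2 scale and 15.0% lower by as much. At 1.5-fold the shares were 10.9% higher and 5.16% lower. Of the 47 proteasome genes 43 reached the floor, on both arrays and above every one of the 23 background control probe sets. Among the 43, 35 were higher by any amount, 15 were higher and 1 lower by at least 0.32, and 2 were higher and 1 lower by at least 1.5-fold. The count past 1.5-fold was thus below the background share for higher genes, and the shift of the family lay in many small differences.

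Bright genes as a whole were tilted the same way. The 30 core and regulatory particle genes had mean values between 8.51 and 13.16, and 4924 genes lay in that range. Their median difference was 0.10, and the middle 50% of these single genes lay between -0.13 and 0.34, a spread of genes and not of list medians. In this range 61.9% of genes were higher by any amount, 26.7% were higher and 11.1% lower by at least 0.32, and 12 and 0 of the 30 proteasome genes were. The shares past 1.5-fold were 10.6% higher and 3.33% lower in this range, and 2 and 0 of the 30 passed it. Across the 30 genes the difference had no clear relation to the mean value (Pearson r = 0.05, n = 30 genes of 2 arrays, given as a description).

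**Figure D1:**
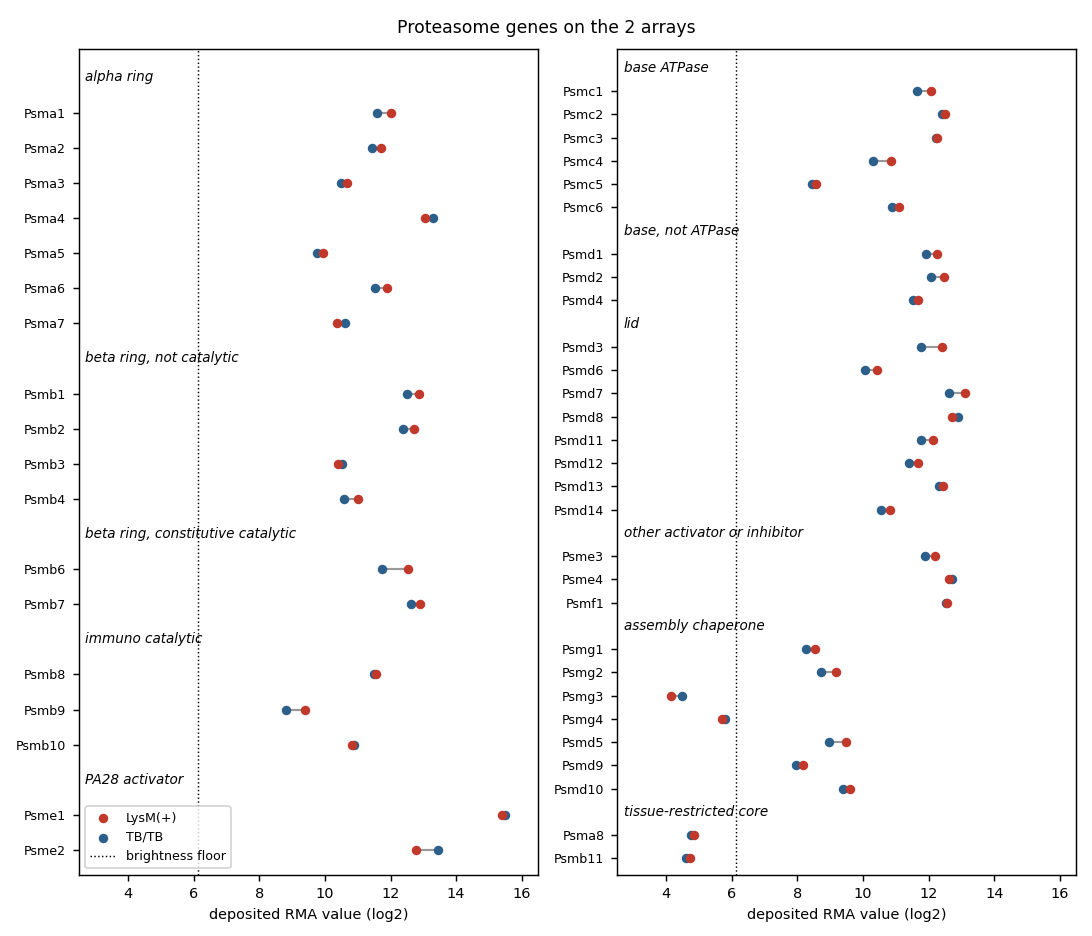
Deposited log2 RMA values of the 47 proteasome genes (horizontal axis) on the LysM(+) array (red) and the TB/TB array (blue), grouped by role, with the brightness floor of 6.12 dotted; each point is 1 array. The red point lies to the right for 26 of the 30 core and regulatory particle genes, and furthest to the left of the blue one for Psme2.

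The alpha ring was mixed. Its 7 genes had a median difference of 0.19, with 5 higher and 2 lower. That count was near the 61.9% higher among the 4924 genes of like brightness. Psma1 had a value of 12.01 in LysM(+) and 11.59 in TB/TB, a difference of 0.42 and the highest of the ring. Psma6, at 11.88 and 11.54, was the other alpha gene past 0.32, with a difference of 0.34. Psma4 went the other way, at 13.04 and 13.29, and its difference of -0.25 was the lowest of the ring and of the whole constitutive core. Psma7 was also lower in LysM(+), with a difference of -0.23, while Psma2, Psma3 and Psma5 were higher by 0.17 to 0.27. The subunits of a ring are assembled in equal number; their probe sets differed by up to 0.67 in how far they moved.

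The beta ring held the largest difference of the family. Psmb6, the constitutive subunit with caspase-like activity, had a value of 12.52 in LysM(+) and 11.74 in TB/TB. The LysM(+) array was thus higher by 0.78, or 1.72-fold if the values are log2. Psmb7, the subunit with trypsin-like activity, had values of 12.89 and 12.64, a difference of 0.25. Among the beta subunits without a proteolytic site, Psmb4 (11.00 and 10.57) had a difference of 0.43 and Psmb1 (12.88 and 12.49) one of 0.39. Psmb2, at 12.70 and 12.38, lay just under that limit, with a difference that also rounds to 0.32, and Psmb3, at 10.41 and 10.51, was the one beta gene of the constitutive core that was lower in LysM(+), with a difference of -0.10.

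In the regulatory particle 16 of 17 genes had the higher value in LysM(+), of which 7 were higher by at least 0.32. Over the 4924 genes of like brightness the shares were 61.9% and 26.7%. The 6 ATPase genes of the base were all higher, with a median difference of 0.17. Psmc4 had values of 10.86 and 10.31 and the highest difference of the ATPases, 0.55. Psmc1, at 12.06 and 11.65, followed with 0.41. Psmc3, at 12.25 and 12.22, was lowest with 0.03, a difference so small that it turned to -0.06 after quantile normalization or after loess. Of the base subunits that are not ATPases, the scaffold Psmd2 was higher by 0.42 (12.47 and 12.05), the scaffold Psmd1 by 0.31 and the ubiquitin receptor Psmd4 by 0.15.

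The lid had the highest median of the regulatory particle, 0.33 over 8 genes. Psmd3, a scaffold subunit of the lid, had a value of 12.40 in LysM(+) and 11.78 in TB/TB. Its difference of 0.63 (1.54-fold) was the second highest of the 47 genes and, with Psmb6, one of the 2 past 1.5-fold; after quantile normalization it was 0.55 and after loess 0.54, both under that limit. Psmd7, the partner of the deubiquitinase in the lid, was at 13.09 and 12.62, a difference of 0.47. Psmd14, the deubiquitinase itself, was at 10.83 and 10.53, a difference of 0.29. Psmd6 and Psmd11 were higher by 0.40 and 0.37, Psmd12 and Psmd13 by 0.25 and 0.11. Psmd8, at 12.71 and 12.89, was the sole regulatory particle gene with the lower value in LysM(+), a difference of -0.18.

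**Figure D2:**
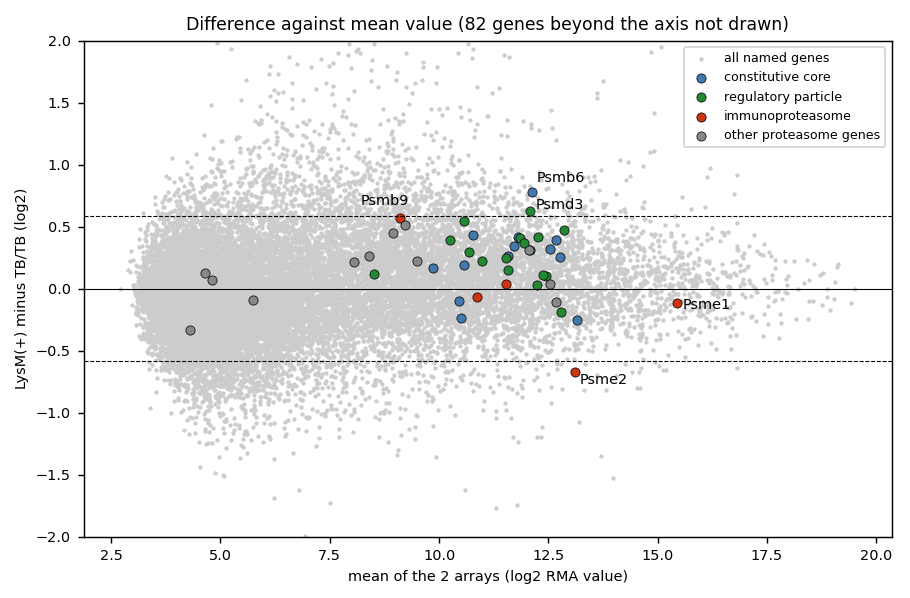
Difference between the arrays (vertical axis, LysM(+) minus TB/TB, log2) against the mean of both arrays (horizontal axis, log2 RMA value) for all named genes (grey; 82 genes beyond the axis are not drawn) and the proteasome genes by group; dashed lines mark 1.5-fold. Core and regulatory particle genes lie mostly above 0 within the cloud of other genes, and Psmb6, Psmd3 and Psme2 are the labelled points beyond the dashed lines.

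The 5 immunoproteasome genes went in different directions. Psmb9, which takes the place of Psmb6, had a value of 9.39 in LysM(+) and 8.81 in TB/TB, higher by 0.57 (1.49-fold), which ranked 3 of the 43 genes. Psmb8 was at 11.54 and 11.51, a difference of 0.04 that became -0.04 after quantile normalization and -0.05 after loess. Psmb10, which takes the place of Psmb7, was at 10.83 and 10.90, a difference of -0.07. Thus 1 of the 3 inducible catalytic genes differed by over 0.32, and it was higher, whereas the other two hardly differed.

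The PA28 genes were both lower in LysM(+), by unequal amounts. Psme1, which encodes the alpha subunit, had values of 15.38 and 15.50, a difference of -0.12. Psme2, which encodes the beta subunit, was at 12.76 and 13.44, a difference of -0.67 (1.59-fold lower), the lowest of all 47 genes. The 2 proteins form a joint ring, and their genes differed from each other by 0.55 in how far they moved. The retrocopy Psme2b, counted outside the 47, had values of 12.38 and 12.97 and a difference of -0.59. Its sequence is close to that of Psme2, so their probes may share signal and the 2 probe sets are not independent readings.

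Each inducible subunit was also set against the constitutive one it replaces. Relative to Psmb6, Psmb9 moved by -0.21 on the log2 scale, since both were higher in LysM(+) and Psmb6 more so. Relative to Psmb7, Psmb10 moved by -0.32. In both measured pairs the inducible member was thus the one with the lower difference. For Psmb9 this was fixed in advance, since Psmb6 had the highest difference of all 47 genes and any gene set against it comes out lower. Psmb9 itself ranked 3. Each figure rests on 2 probe sets and 2 arrays, and the pair of Psmb8 and Psmb5 was not analysed here.

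Psmb9 and Psmb8 lie among the MHC class II genes on chromosome 17, next to the peptide transporter genes Tap1 and Tap2. Psmb9 and Tap1 run in opposite directions from starts that are 225 bases apart in RefSeq, so the Psmb9 stretch printed above covers the whole gap between them. Tap1 had values of 9.96 in LysM(+) and 10.38 in TB/TB, a difference of -0.41, against 0.57 for Psmb9: neighbours with a shared upstream stretch differed by 0.99 in how far they moved. Tap2 had a difference of -0.38, and of the flanking class II genes H2-DMa and H2-Eb1 had differences of -0.83 and -0.82. Among the 12 measured genes of the stretch from Brd2 to H2-Eb1, Psmb9, Psmb8 and H2-DMb2 were the 3 with the higher value in LysM(+), and the last 2 by only 0.04 each in the deposited values (for Psmb8 the sign turned with the scaling, as given above). Of all genes that reached the floor, 57.1% were higher. H2-Ob, among the lower genes of the stretch, was under the floor on both arrays (5.94 and 6.09).

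**Figure D3:**
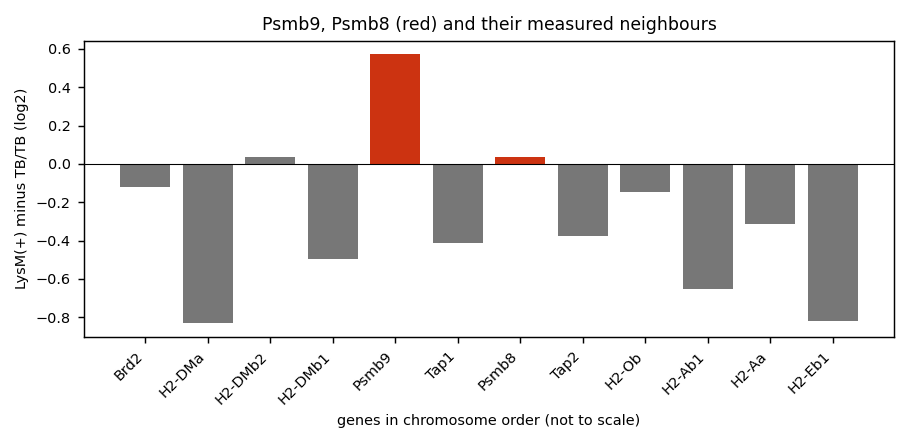
Difference between the arrays (vertical axis, LysM(+) minus TB/TB, log2) for the protein-coding genes around Psmb9 and Psmb8 in the order of the RefSeq assembly (horizontal axis, not to scale); each bar is 1 gene and Psmb genes are red. Psmb9 stands at 0.57 between H2-DMb1 at -0.50 and Tap1 at -0.41.

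Among the other activators and the inhibitor, Psme3 differed most. Psme3, the nuclear activator related to PA28, was at 12.20 and 11.89, a difference of 0.31. This was near the regulatory particle median of 0.29 and opposite in sign to the difference of its relative Psme2. Psme4, another activator that caps the core, was at 12.61 and 12.72, a difference of -0.11. Psmf1, an inhibitor of the proteasome, was at 12.56 and 12.52, a difference of 0.03 that changed sign after quantile normalization and loess (-0.03 and -0.05). None of the 3 differed by 0.32 or more (0 genes).

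Assembly chaperones leaned the way of the subunits they help to build. Of 7 genes, 5 reached the floor and all 5 were higher in LysM(+), against 57.1% of all genes that reached it. Psmd5, a chaperone of the base, was at 9.48 and 8.96, a difference of 0.52. Psmg2, which helps to build the alpha ring, was at 9.16 and 8.71, a difference of 0.45. Psmg1, the partner of Psmg2, was higher by 0.27, and the base chaperones Psmd10 and Psmd9 by 0.22 and 0.21. Psmg3 (4.13 and 4.47) and Psmg4 (5.70 and 5.79) were under the floor on both arrays, so their differences of -0.34 and -0.09 lie at background-level signal.

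The core genes known from single tissues were dim. Psma8, known from testis, had values of 4.83 and 4.77, and Psmb11, known from thymic epithelium, values of 4.72 and 4.59, within the 3.09 to 6.81 of the background control probe sets. Psmc3ip was likewise under the floor (5.97 and 5.64). Psme3ip1 was at 11.69 and 11.94, a difference of -0.25.

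Partners of the proteasome outside the Psm symbols went both ways. Of 13 listed genes 11 were measured, with a median difference of 0.22. Of the 11, 6 were higher and 5 lower, a count near the 57.1% higher among all genes that reached the floor. Uchl5, a deubiquitinase of the regulatory particle, was at 9.99 and 9.20, higher by 0.79. Pomp, the maturation factor of the core, was at 12.12 and 11.52, higher by 0.59. Midn, midnolin, which brings nuclear proteins to the proteasome, was also higher by 0.59, and the ubiquitin ligase Ube3c was the lowest at -0.33. Genes of ubiquitin shuttling and of the unfoldase Vcp had 9 measured members of 15, with a median of 0.14. All 9 were higher (8 after loess), against the same 57.1%. Ufd1, a cofactor of Vcp, was higher by 0.93, Ubqln1, a shuttle factor, by 0.69 and Ubqln4 by 0.07.

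NRF1, the product of Nfe2l1, is known to raise proteasome genes when proteasome activity is short. Nfe2l1 had values of 13.74 and 13.82, a difference of -0.08. The list drawn for its control held 7 genes, of which 6 were measured and Ddi2 was not. It counted Nfe2l1 itself and the separate gene Nfe2l2, at -0.29. The 6 had a median of -0.06, from Mafk at -0.38 to Ngly1 at 0.44, and none passed 1.5-fold (0 genes). Both Mafk values, 6.21 and 6.59, were within the range of the background controls (3.09 to 6.81), so its difference is not exact. RNA levels do not show how much of NRF1 is processed to its active form.

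Other large complexes had medians like that of the constitutive proteasome. The COP9 signalosome, whose subunits are related to those of the lid, had a median difference of 0.29 over 9 genes, with Gps1 and Cops5 higher by 0.75 and 0.72 and Cops3 at -0.13. The translation factor eIF3, related to the lid as well, had one of 0.20 over 11 genes, from Eif3e at -0.21 to Eif3a at 0.56. The chaperonin CCT had one of 0.23 over 7 genes, with Tcp1 at 0.70, Cct7, under the floor in TB/TB, at 0.60 and Cct2 at 0.05. All 7 were higher (6 after quantile normalization or loess), against 57.1% of all genes that reached the floor. The differences between these medians and those of the proteasome were not tested, and after quantile normalization or loess all of them were smaller (0.10 to 0.21).

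**Figure D4:**
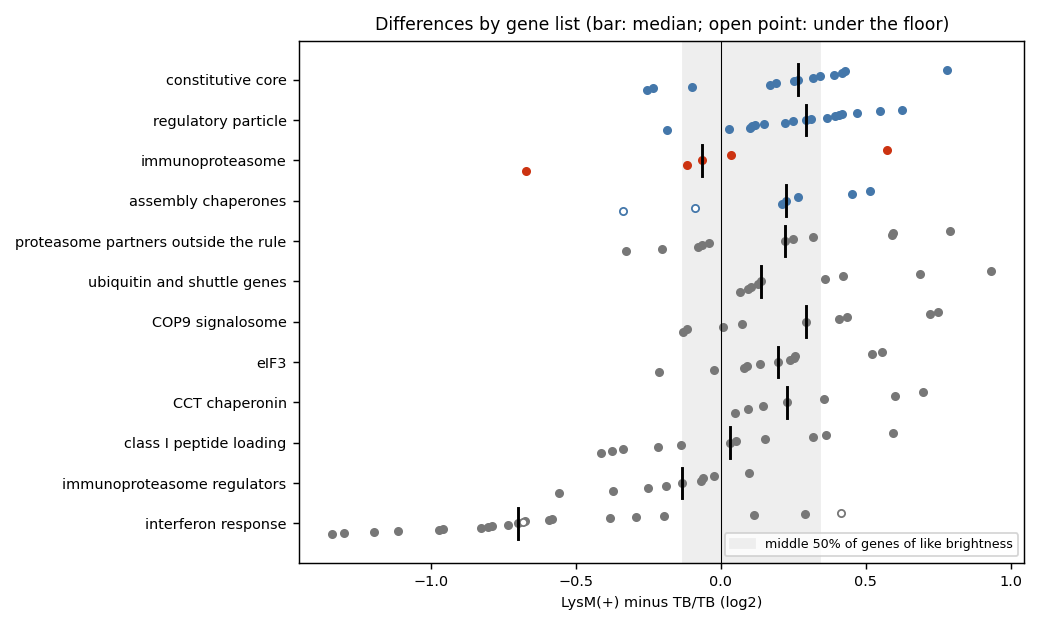
Difference between the arrays (horizontal axis, LysM(+) minus TB/TB, log2) for each gene of the proteasome groups and of 8 related lists; points are genes, open points lie under the brightness floor, black bars are medians and the grey band holds the middle 50% of the 4924 single genes of like brightness, which is no yardstick for a median. The core and regulatory particle medians are 0.27 and 0.29, that of the COP9 signalosome 0.29 and that of the interferon response -0.70.

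Genes that act with or control the immunoproteasome differed in both directions. The 11 genes of class I peptide loading had a median of 0.03 (-0.01 after quantile normalization and -0.03 after loess), from Tap1 at -0.41 to the peptide-trimming enzyme gene Erap1 at 0.59, its one member past 1.5-fold. The 9 measured regulators, of 11 listed, had a median of -0.13. Of the 9, 1 was higher and 8 lower, against 57.1% higher among all genes that reached the floor. Stat2 was lowest at -0.56 and Ifnar2 highest at 0.10. Irf1, a known activator of Psmb9 and Tap1, was at 10.90 and 11.09, a difference of -0.19. The interferon response list had a median of -0.70 over 21 genes. Of the 19 that reached the floor, 13 were lower by at least 1.5-fold, against 5.16% of all genes that reached it. Among the 13 were Usp18 at -1.34, Rsad2 at -1.30, Ifit3 at -1.19 and Xaf1 at -1.11. The 13 also held Ifit2, with both values (5.93 and 6.52) within the range of the background controls. Ifit1 and Gbp3 reached the floor and were higher by 0.29 and 0.11. The highest member, Oasl1 at 0.42, was under the floor. Of the 5 immunoproteasome genes, all known to respond to interferon, Psme2 alone was lower by at least 1.5-fold.

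Markers of other cells and of cell division were read beside these results. All 11 measured macrophage markers reached the floor on both arrays, with values of at least 12.41, and their summed level was 20.36 in LysM(+) and 20.48 in TB/TB (log2 of the summed linear values). All 15 measured cell division genes were higher in LysM(+) by at least 1.5-fold, against 10.9% of all genes that reached the floor. Their median was 2.02 and their summed levels were 16.94 and 15.79. The TB/TB values of Cdk1, Bub1, Ccna2, Aurka and Top2a lay within the range of the background controls, so their differences are not exact. Of 11 measured neutrophil markers 8 reached the floor, with a median of 0.45 over the 8 (0.29 over all 11) and summed levels of 16.75 and 16.44. Ltf, Retnlg and Elane were higher in LysM(+) by 1.38, 1.32 and 1.18, the last 2 with TB/TB values within the range of the background controls, and Csf3r was lowest with a difference of -0.57. No B cell or NK cell marker reached the floor (0 of 4 and 0 of 6), and 1 of 5 T cell markers, 1 of 6 progenitor markers, 3 of 9 dendritic cell markers and 4 of 6 fibroblast markers did. The fibroblast markers had summed levels of 10.15 and 10.40, with Col1a2 at -0.61, Dcn at -0.38 and Pdgfrb, within the background control range on both arrays, at 0.37. The part of dividing cells, neutrophils and fibroblasts in the proteasome differences was not tested, and fewer cells of a type and less RNA per cell cannot be told apart in such cultures.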

How the data were processed

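The authors' deposited values are log2 RMA values per probe set, made with Affymetrix Expression Console and RMA per the submitters' processing notes; neither versions nor a genome build stood in the sources used here. The base of the logarithm was inferred from the method, and every fold depends on it. Values ran from 2.57 to 19.5, a wide range for RMA. Of 28846 probe sets, 19572 had 1 gene symbol, 0 several and 9274, controls included, none; all 19572 matched RefSeq (GRCm38.p6) by Entrez ID. Probe sets of 1 gene were averaged; each of the 50 members had 1. No detection calls were used.

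Counts used limits of 0.32 and 0.58 on the log2 scale (the latter 1.5-fold) with the brightness floor of 6.12. The genes described singly are the immunoproteasome genes, their constitutive counterparts, in each other subgroup the members past 0.32 and its extremes, and in each further list the members past 1.5-fold (at most 4) and the extremes. Remaining members, the neighbours of Psmb9 and the motifs were named after their values were seen. The members and lists were chosen with earlier results of these data known. Alternatives were centring, quantile normalization, loess (span 0.4), the brightest probe set, no floor, the floor on both arrays, and means. The counting was tested on simulated data at the 1.5-fold limit only, with bright genes and planted changes larger than any difference of the 47 genes. It thus checked the code and not the counts near 0.32. Python 3.11.15, pandas 2.3.3 and statsmodels 0.14.6 were used. Many proteasome genes have processed copies in the genome whose probes may share signal.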

Additional observations from a re-analysis of the deposited data

How the results depend on the processing

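No paired analysis was possible because each genotype had 1 array. Of 45 alternative values for the group medians and counts, 39 stayed close to those reported (medians within 0.1, counts within 1.5 times) and 6 moved. No median changed sign (0 values), and a count has no sign to change. Part of the 39 could not differ. Each member had 1 probe set, so the brightest probe set changed nothing. Every core, regulatory particle and immunoproteasome gene reached the floor on both arrays, so the floor settings left the medians as they were. After quantile normalization the regulatory particle median was 0.19, the number of proteasome genes higher by at least 1.5-fold was 1 and the number lower by at least 0.32 on the log2 scale was 2. With loess these counts were 1 and 3, the genes added to Psme2 being Psma4 and Psma7, and without a floor the latter was 2, adding Psmg3. The core median ranged from 0.17 to 0.27 and the immunoproteasome median from -0.16 to -0.05. The differences of Psmb6, Psmd3, Psmb9, Psme1, Psme2 and Psme2b kept their sign and moved by no more than 0.1 in all 24 alternative values. Those of the 24 from the brightest probe set could not differ. Of the 47 genes, 44 kept their sign under every scaling; Psmb8, Psmc3 and Psmf1 did not. Quantile normalization and loess take out part of the tilt of bright genes by construction. How far a probe set stood above background is known only from the control probe sets.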

Other observations

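The ETS site CCGGAAG stood in the 250 bases before 12 of the 39 proteasome genes with a RefSeq promoter (30.8%), against 6.91% of all promoters and 13.9% of the 10513 promoters of genes that reached the brightness floor. The first share counts genes with a match before any listed start, and the others count single promoters, so the units differ. The 12 were Psma6, Psmc1, Psmc2, Psmc6, Psmd2, Psmd4, Psmd6, Psmd11, Psmd12, Psme3, Psme4 and Psmg1; of these, 8 belong to the regulatory particle and none is an immunoproteasome gene (0 genes). Their median difference was 0.29, against 0.13 for the 27 genes without the letters. The 27 hold the immunoproteasome genes Psmb8, Psmb9, Psme1 and Psme2. They also hold Psmb11, which lies under the floor and whose own difference is the median of the 27. The genes with and without the letters thus differ in their groups and not only in the letters. The motif was picked after the promoters were searched, the genes are not replicates, and the match says nothing of a factor.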
